A study of Mus musculus with 4 samples.

Results

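The mRNAs of the nuclear corepressor that carries the deacetylase HDAC3, and of the class IIa deacetylases that bind to it, were followed in ovarian granulosa cell (GC) libraries of Hdac3cKO and Hdac3flox/flox mice. The members were the rows of the deposited expression table named Hdac3, Ncor1, Tbl1x, Tbl1xr1, Gps2, Hdac4, Hdac5, Hdac7 and Hdac9, so 9 of 28611 rows. Hdac3flox/flox mice carry loxP sites in both copies of Hdac3, and Hdac3cKO mice carry in addition Foxl2-CreERT2, a Cre recombinase that tamoxifen activates in cells expressing Foxl2, which in the ovary are mainly GCs. All mice were C57BL/6 females that received a single injection of tamoxifen at 20 mg/kg on day 18 of age and were sampled on day 24. There were 2 replicate libraries per genotype, and the sample titles do not say whether each came from 1 mouse. The controls therefore had the drug and the floxed alleles but no Cre, and no library of mice with Cre alone was analysed here. The labels name GCs as the source and ovaries as the tissue from which RNA was extracted, and do not say whether pregnant mare serum gonadotropin was given. The study states that depletion of Hdac3 was incomplete in this model, and it also reports a marked fall of HDAC3 protein in GCs by western blotting. That protein was measured on a later day after tamoxifen than these libraries, which hold mRNA only.

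HDAC3 removes acetyl groups from histones, and its catalytic activity depends on binding to a nuclear corepressor such as NCOR1. The corepressor, together with the WD40-repeat proteins TBL1X and TBL1XR1 and with GPS2, forms a complex that nuclear receptors and other transcription factors bring to genes to repress them. The class IIa enzymes HDAC4, HDAC5, HDAC7 and HDAC9 have little deacetylase activity of their own, bind MEF2 transcription factors, and contact the corepressor complex with HDAC3. Kinases such as the salt-inducible kinases and protein kinase D phosphorylate them, after which 14-3-3 proteins hold them in the cytoplasm.

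Values were RPKM, which are read counts scaled to exon length and library size, from libraries of 17621129 to 18452073 reads. Genotypes were compared with limma on log2(RPKM + 0.1), and a gene was called at a Benjamini-Hochberg adjusted p under 0.05 over the 15528 genes that reached 0.5 RPKM in 2 or more libraries. Of these genes 18.7% were called, 11.0% lower and 7.68% higher in Hdac3cKO, and with median-of-ratios size factors in place of the authors' scaling the split was 1626 higher and 1355 lower instead of 1193 higher and 1711 lower. With 2 libraries against 2, an exact permutation test of a single gene cannot go below p = 0.333, so the calls rest on the spread that limma shares across genes. GC markers were abundant in every library, with Inha between 4946 and 6094 RPKM, and all 10 GC markers were detected in all libraries. Markers of oocytes, theca cells and endothelium were detected too, with summed RPKM of 251 to 310 over 10 oocyte genes, 2730 to 3456 over 8 theca genes and 84.7 to 117 over 10 endothelial genes. Most of the theca sum was Hsd3b1, at 1918 to 2355 RPKM, while Cyp17a1 stood at 337 to 527 RPKM and Insl3 at 0.696 to 2.10 RPKM. The libraries thus held RNA of other cells of the ovary beside GCs, and fewer cells of a type and less RNA per cell cannot be told apart in them.

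Among the 9 genes, Hdac3, Hdac5 and Tbl1xr1 were lower in Hdac3cKO, none was higher, 5 were tested and not called, and Hdac9 was below the filter. The 3 of 8 tested genes called lower stand beside 11.0% of all tested genes, and they include Hdac3, the gene that the Cre deletes in these mice. The median log2 fold change of the 8 was -0.14, against -0.04 for all tested genes, and 8 of 8 values were negative, against 56.2% of all tested genes. The value of Gps2 was -0.0031 and changed sign to 0.0404 with median-of-ratios size factors. In 7 of the 8 both Hdac3cKO libraries lay below both Hdac3flox/flox libraries, a pattern found in 37.8% of all tested genes. The falls in Hdac3 and Hdac5 were called in every alternative that used all 4 libraries, and no member was called when any 1 of the 4 libraries was left out.

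**Figure D1:**
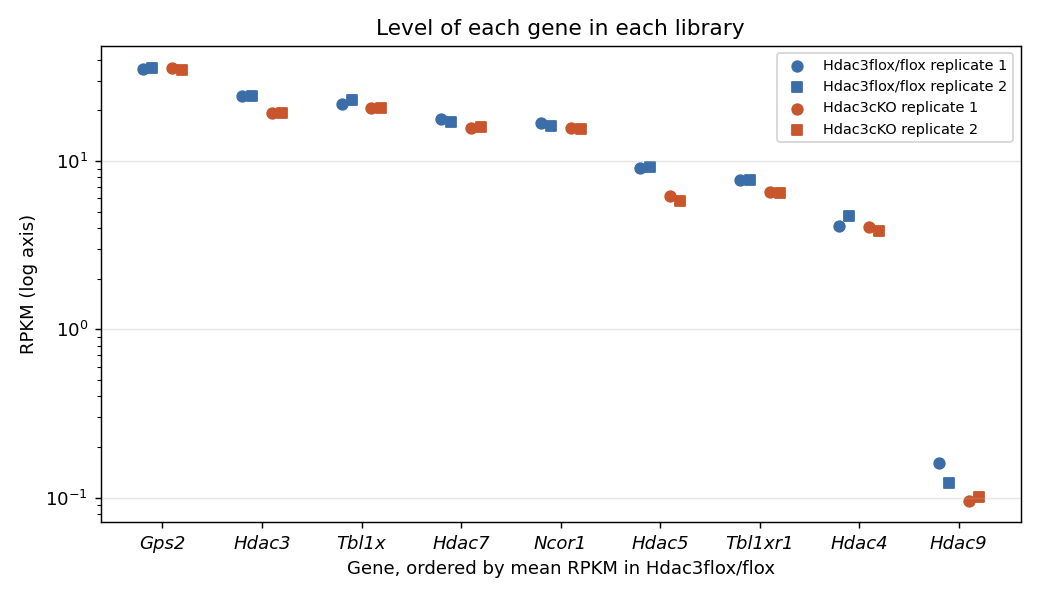
RPKM (log axis) of each of the 9 genes in each library, with blue for Hdac3flox/flox, orange for Hdac3cKO, circles for replicate 1 and squares for replicate 2. Hdac5 shows the widest gap between genotypes among the genes above 0.5 RPKM, Gps2 shows none, and Hdac9 lies at 0.160 RPKM or below in every library.

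Hdac3 itself, the gene targeted in these mice, lies on chr18:37935844-37955016, minus strand (GRCm38, all positions below). It stood at 24.4 and 24.4 RPKM in the Hdac3flox/flox libraries (1799 and 1805 reads) against 19.4 and 19.2 RPKM in Hdac3cKO (1440 and 1361 reads). Both Hdac3cKO libraries were lower, and the replicates of each genotype lay close to each other. The log2 fold change was -0.34 (SE 0.0325, adjusted p = 0.00935), so 79.0% of the control level remained, and the ratio of reads was 0.790 (exact 95% interval 0.751 to 0.830, counting error only). Of all tested genes, 16.2% had a log2 fold change this low or lower. The value sums reads over the whole gene, so a transcript that lacks the floxed part still counts, and cells without Cre contribute their full level. Without any 1 library the log2 fold change was between -0.35 and -0.33, with adjusted p from 0.0724 to 0.0894. The Cre driver gene Foxl2, a GC transcription factor, was lower as well, from 156 and 149.9 RPKM to 126 and 128 RPKM (log2 fold change -0.27, SE 0.0308, adjusted p = 0.0125). GC markers did not move together: of 10, Foxl2 was among 2 called lower, and 5 were called higher. Cyp19a1 was among the higher ones (log2 fold change 0.89, adjusted p = 0.00893).

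The 3 tested genes nearest to Hdac3 across the 4 libraries, by Euclidean distance between log2(RPKM + 0.1) values centred on each gene's mean, were Pknox2 (distance 0.00927), Smpd1 (0.0139) and Dync2li1 (0.0153). Their log2 fold changes were -0.35, -0.33 and -0.35. Pknox2 encodes a homeobox transcription factor, Smpd1 the lysosomal acid sphingomyelinase and Dync2li1 a subunit of the cilium motor dynein 2. The distance is over 4 libraries in 2 groups, and all 3 genes were called lower.

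Ncor1 (chr11:62316426-62458541, minus strand) encodes the corepressor scaffold, with the deacetylase activating domain to which HDAC3 binds. Its level was 16.7 and 16.1 RPKM in Hdac3flox/flox and 15.8 and 15.5 RPKM in Hdac3cKO. The Hdac3cKO values were lower without overlap, but did not pass the test (log2 fold change -0.07, SE 0.0411, adjusted p = 0.283). Hdac3 mRNA per Ncor1 mRNA was 1.46 and 1.52 in Hdac3flox/flox and 1.23 and 1.24 in Hdac3cKO, with no overlap between genotypes. That ratio is of RPKM values within a library and does not depend on how libraries were scaled.

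Tbl1x and Tbl1xr1 encode closely related WD40-repeat proteins of the complex, which take part in exchanging corepressors for coactivators. Tbl1xr1 (chr3:22076652-22216594, plus strand) stood at 7.67 and 7.73 RPKM in Hdac3flox/flox (1250 and 1263 reads) and at 6.50 and 6.47 RPKM in Hdac3cKO (1068 and 1015 reads). Both Hdac3cKO libraries were lower and the replicates were nearly equal. Tbl1xr1 fell by 0.24 on the log2 scale (SE 0.0482, adjusted p = 0.0365), to 84.2% of the control level. This call was near the threshold: the adjusted p was 0.0544 with median-of-ratios size factors, 0.0632 with no filter and 0.133 to 0.162 without any 1 library. Tbl1x (chrX:77511013-77662983, plus strand) stood at 21.7 and 23.0 RPKM in the controls and at 20.7 and 20.6 RPKM in Hdac3cKO. Its log2 fold change was -0.11 (SE 0.0425, adjusted p = 0.134), and it was called only with limma voom on recovered reads (adjusted p = 0.0483). Tbl1x was the more abundant of the pair in every library, with a Tbl1x to Tbl1xr1 ratio of 2.83 and 2.97 in the controls and 3.18 and 3.18 in Hdac3cKO.

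Gps2 (chr11:69913888-69916591, plus strand), a subunit that binds the TBL1 proteins and NCOR1 and also restrains inflammatory signalling, was the most abundant of the 9 mRNAs. It stood at 35.0 and 35.9 RPKM in Hdac3flox/flox and at 35.9 and 34.9 RPKM in Hdac3cKO. The genotypes overlapped, with a log2 fold change of -0.0031 (SE 0.0334, adjusted p = 0.959). The ratio of reads was 0.998 (exact 95% interval 0.939 to 1.06), so a fall of Gps2 as large as that of Hdac3 lay outside its counting interval.

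**Figure D2:**
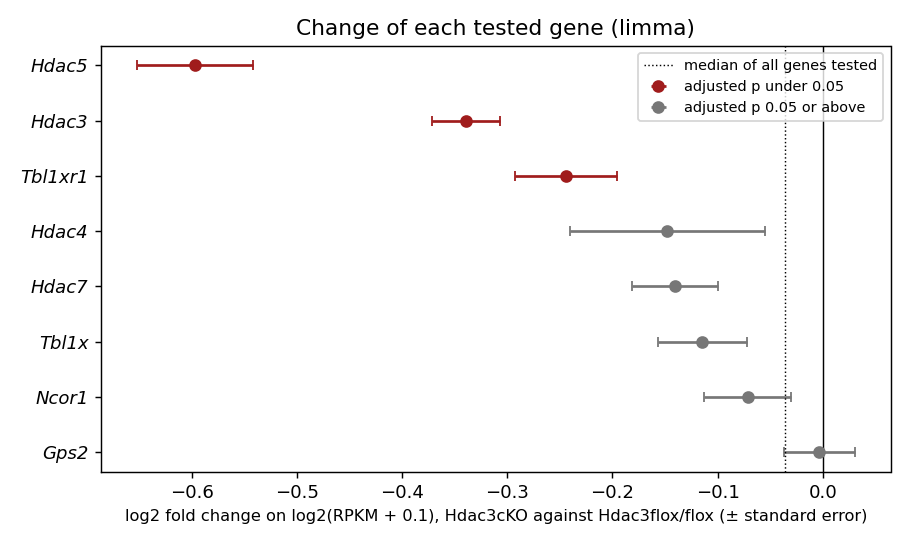
Log2 fold change of the 8 tested genes (limma on log2(RPKM + 0.1), Hdac3cKO against Hdac3flox/flox, 2 libraries each), with bars of 1 standard error, red where the adjusted p was under 0.05 and grey otherwise. Hdac5 (-0.60), Hdac3 (-0.34) and Tbl1xr1 (-0.24) were called, and the dotted line marks the median of all tested genes (-0.04).

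Hdac5 showed the largest fall among the tested members. This class IIa deacetylase (chr11:102194432-102230166, minus strand) shuttles between nucleus and cytoplasm and represses MEF2 targets. It stood at 9.09 and 9.17 RPKM in Hdac3flox/flox (1462 and 1477 reads) and at 6.19 and 5.82 RPKM in Hdac3cKO (1003 and 901 reads). The genotypes were far apart relative to their replicates. The log2 fold change was -0.60 (SE 0.0554, adjusted p = 0.00895), which left 65.8% of the control level, and 6.85% of all tested genes had a value this low or lower. The ratio of reads was 0.658 (exact 95% interval 0.621 to 0.698), an interval that lay entirely below that of Hdac3. Without any 1 library the log2 fold change was between -0.64 and -0.55, with adjusted p from 0.0725 to 0.0864.

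The 250 bases before the RefSeq start site (GRCm38.p6) are shown for Hdac5 and Tbl1xr1, the called members beside Hdac3. Promoters on the chromosome of Hdac3 were left out of this search, so none is shown for it. Each is written 5′ to 3′ on the strand of its gene, with capitals marking matches to the MEF2 consensus or to the GC box GGGCGG, on either strand.
Hdac5 (chr11:102230173-102230422, minus strand): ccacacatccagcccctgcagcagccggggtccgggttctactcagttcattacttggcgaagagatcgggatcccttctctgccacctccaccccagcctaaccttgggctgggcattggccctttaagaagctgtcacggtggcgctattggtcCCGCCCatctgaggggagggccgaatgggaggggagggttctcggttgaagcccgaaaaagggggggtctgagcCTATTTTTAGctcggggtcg
Tbl1xr1 (chr3:22076402-22076651, plus strand): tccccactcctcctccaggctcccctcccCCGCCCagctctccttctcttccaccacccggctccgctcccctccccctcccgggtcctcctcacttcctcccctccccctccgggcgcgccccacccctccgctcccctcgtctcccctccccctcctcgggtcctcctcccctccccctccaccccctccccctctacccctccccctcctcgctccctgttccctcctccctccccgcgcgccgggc
The Hdac5 sequence holds 1 match to the MEF2 consensus, whose first base lies at -20 from the start, and 1 GC box. The Tbl1xr1 sequence holds 1 GC box, no match to the MEF2 consensus, and is 76.0% G or C, against 60.8% for Hdac5. Of 32851 promoters searched in the same way, 2.92% held a match to the MEF2 consensus and 32.7% held a GC box. Among the 13 promoter entries of 8 members, the Hdac5 entry was the only one with a MEF2 match. The motifs were chosen after the sequences were seen, and a match describes letters and not a bound site.

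Hdac7 (chr15:97792664-97844502, minus strand), a class IIa deacetylase known from endothelium and thymocytes, was the most abundant of its class. It stood at 17.7 and 17.0 RPKM in Hdac3flox/flox and at 15.6 and 15.8 RPKM in Hdac3cKO. All Hdac3cKO values were lower, and the log2 fold change of -0.14 (SE 0.041, adjusted p = 0.0826) missed the threshold, but passed it with limma voom on recovered reads (adjusted p = 0.0314). Hdac4 (chr1:91928779-92195699, minus strand), known for its part in cartilage and muscle, stood at 4.09 and 4.69 RPKM in the controls and at 4.05 and 3.84 RPKM in Hdac3cKO. The controls differed from each other by more than control replicate 1 differed from Hdac3cKO replicate 1, and the log2 fold change was -0.15 (SE 0.0928, adjusted p = 0.321). Hdac9 (chr12:34047580-34917095, minus strand), which is best known from muscle, brain and immune cells, was barely detected. It stood at 0.160 and 0.123 RPKM in the controls (43 and 33 reads) and at 0.0961 and 0.101 RPKM in Hdac3cKO (26 and 26 reads). The read ratio of 0.695 had an exact 95% interval of 0.479 to 1.00, so no difference was detectable at this depth. With no filter on low values, the log2 fold change of Hdac9 was -0.28 (SE 0.224, adjusted p = 0.548).

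Summed over the 4 class IIa genes, the level was 31.1 and 31.0 RPKM in Hdac3flox/flox and 26.0 and 25.6 RPKM in Hdac3cKO. Hdac5 supplied 29.3% and 29.6% of that sum in the controls and 23.8% and 22.8% in Hdac3cKO, while the share of Hdac7 was 57.0% and 54.8% against 60.2% and 61.8%. Neither share overlapped between genotypes. The order of the mRNA levels per length changed at a pair of places. In Hdac3flox/flox it ran Gps2, Hdac3, Tbl1x, Hdac7, Ncor1, Hdac5, Tbl1xr1, Hdac4 and Hdac9, with no overlap between the replicate ranges of neighbours. In Hdac3cKO, Tbl1x stood above Hdac3 and Tbl1xr1 above Hdac5, and the ranges of Hdac7 and Ncor1 overlapped. The Hdac3 to Tbl1x ratio went from 1.13 and 1.06 to 0.937 and 0.933, and the Hdac5 to Tbl1xr1 ratio from 1.19 and 1.19 to 0.952 and 0.900.

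**Figure D3:**
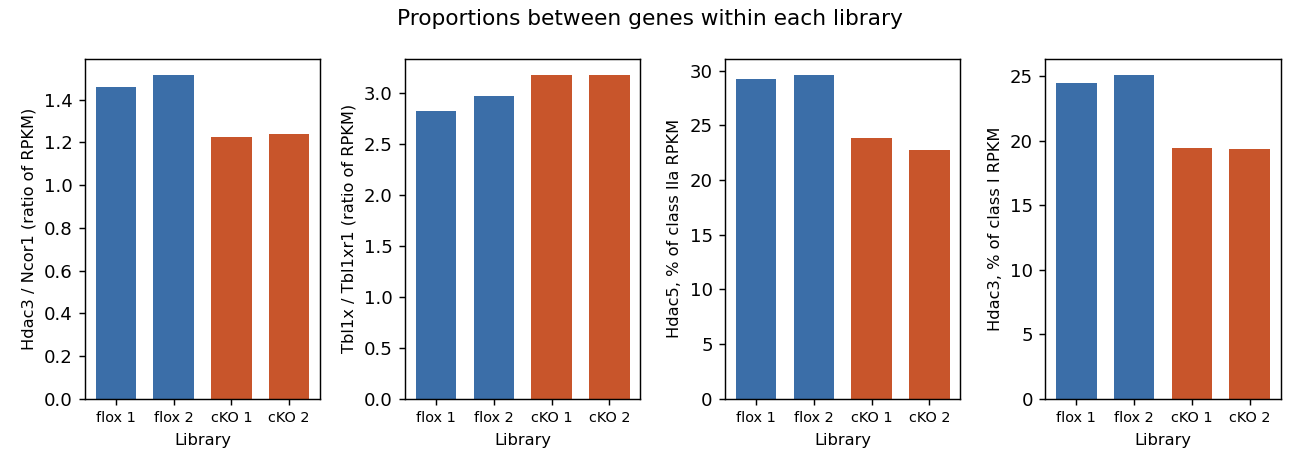
Proportions of RPKM within each library, with blue bars for the Hdac3flox/flox libraries and orange bars for the Hdac3cKO libraries. Hdac3 per Ncor1 mRNA (1.46 and 1.52 against 1.23 and 1.24), the Hdac5 share of class IIa mRNA and the Hdac3 share of class I mRNA were lower in both Hdac3cKO libraries, and the Tbl1x to Tbl1xr1 ratio was higher.

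The other class I deacetylases share the catalytic fold of HDAC3 but act in other complexes, HDAC1 and HDAC2 in Sin3, NuRD and CoREST. Hdac1 stood at 34.3 and 33.7 RPKM in Hdac3flox/flox and at 37.1 and 37.2 RPKM in Hdac3cKO, and Hdac2 at 38.1 and 36.8 RPKM against 41.1 and 40.8 RPKM. Both were higher without overlap, a pattern found in 26.7% of all tested genes, with log2 fold changes of 0.13 for Hdac1 (SE 0.0296, adjusted p = 0.0525) and 0.13 for Hdac2 (SE 0.0328, adjusted p = 0.062). They missed the threshold here and passed it in 3 of the alternatives, with adjusted p of 0.0277 to 0.0432 for Hdac1 and 0.0178 to 0.0479 for Hdac2. Hdac8 stood at 3.0 and 2.44 RPKM against 2.44 and 2.11 RPKM (log2 fold change -0.25, adjusted p = 0.292). Of the summed class I level, Hdac3 made up 24.4% and 25.1% in the controls and 19.4% and 19.3% in Hdac3cKO.

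Of 3 further partners of the corepressor, neither of the 2 tested was called. These were Kdm4a, a histone demethylase found with NCoR (log2 fold change -0.09, adjusted p = 0.188), and Zbtb33, the methyl-DNA binding protein Kaiso (-0.03, adjusted p = 0.742), while Coro2a was below the filter. HDAC3 is folded by the TRiC chaperonin before it joins NCoR, and its activity needs inositol phosphates. Of 15 genes listed for this assembly, 5 were higher and none lower, beside 7.68% higher among all tested genes, with a median log2 fold change of 0.08 against -0.04. With no filter on low values 2 were higher, beside 410 of all 28611 rows. With limma voom on recovered reads 7 were higher and 1 lower, beside 1863 higher and 2774 lower of 15528 tested genes. Without any 1 library the median log2 fold change of the list was 0.07 to 0.11. Hspa8, an HSP70 chaperone, was at 334 and 342 RPKM in the controls and at 401 and 402 RPKM in Hdac3cKO (log2 fold change 0.25, SE 0.0255, adjusted p = 0.0104). The TRiC subunits Cct6a (0.25, adjusted p = 0.0113), Cct8 (0.17, adjusted p = 0.0265), Cct3 (0.17, adjusted p = 0.028) and Tcp1 (0.14, adjusted p = 0.0409) rose as well. Among those not called, the subunit Cct7 had 0.10 (adjusted p = 0.0928) and the inositol phosphate kinase Itpk1 -0.28 (adjusted p = 0.104). The TRiC subunits Cct2 (0.06, adjusted p = 0.324), Cct5 (0.02, adjusted p = 0.736) and Cct4 (-0.05, adjusted p = 0.473) were not called either.

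Receptors and other factors known to recruit NCoR made up a list of 17 genes, of which 14 were tested, 6 were lower, 8 were not called and none was higher. Among all tested genes 11.0% were lower, and the median log2 fold change was -0.25 for the list against -0.04 for all tested genes. Nr1d1 (REV-ERB alpha), a heme receptor that represses clock genes through NCoR and HDAC3, was at 8.36 and 9.05 RPKM in the controls and at 4.77 and 5.13 RPKM in Hdac3cKO (log2 fold change -0.80, SE 0.0709, adjusted p = 0.00833). Rarg, a retinoic acid receptor, was at 7.06 and 7.31 RPKM against 3.51 and 4.02 RPKM (-0.92, SE 0.086, adjusted p = 0.0091). In both genes the levels of the genotypes were well apart. The liver X receptor Nr1h2 (-0.23, adjusted p = 0.0155) and the thyroid hormone receptor Thra (-0.26, adjusted p = 0.0193) fell as well. The annotated spans of Thra (chr11:98740638-98769006) and Nr1d1 (chr11:98767932-98775333) overlap, and the sources used here do not say whether counting used strand. Of the genes not called, Thrb, the other thyroid hormone receptor, had -0.34 (adjusted p = 0.178), and Pparg, a fatty acid receptor of GCs, had 0.11 (adjusted p = 0.254). With no filter on low values 3 of the 17 were lower instead of 6, beside 544 of all 28611 rows instead of 1711 of 15528 tested genes. Without any 1 library the median log2 fold change of the list was -0.25 to -0.17.

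**Figure D4:**
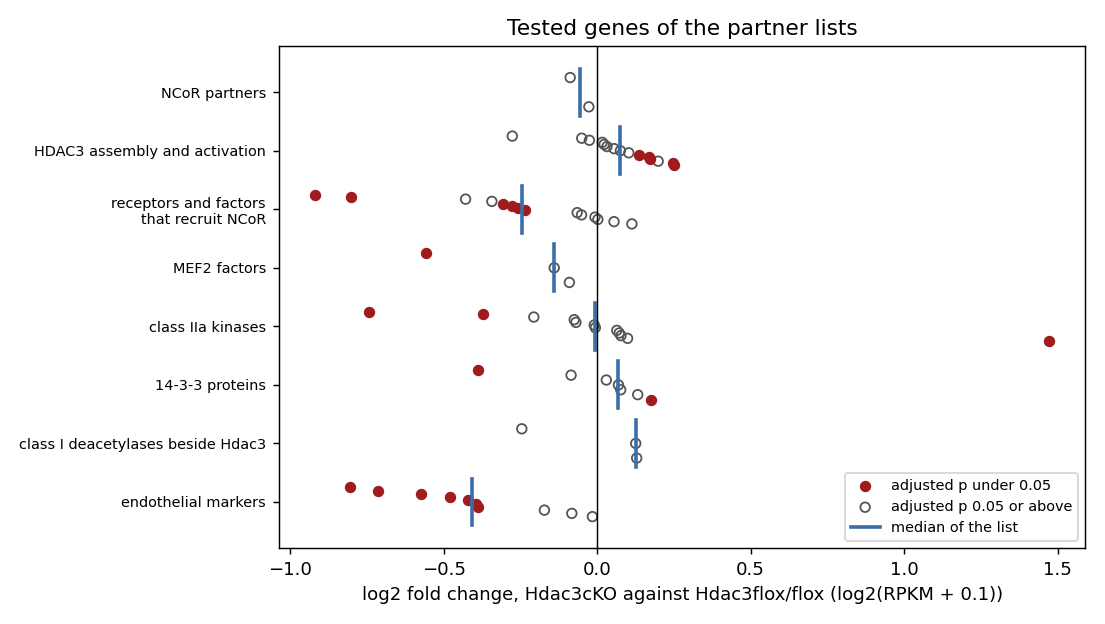
Log2 fold change of every tested gene in 7 lists of partners and in the endothelial marker list (Hdac3cKO against Hdac3flox/flox, log2(RPKM + 0.1)), with filled red points for genes with an adjusted p under 0.05, open points for the others and a blue bar at each list's median. Recruiting receptors (median -0.25) and endothelial markers (median -0.41) lie mostly to the left of 0, and Sik1 (1.47) is the only point beyond 1.

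On the class IIa side, the MEF2 factors are the DNA-binding proteins that these deacetylases silence. Mef2c was at 4.12 and 4.18 RPKM in Hdac3flox/flox and at 2.84 and 2.74 RPKM in Hdac3cKO, with both Hdac3cKO values lower. Its log2 fold change was -0.56 (SE 0.0716, adjusted p = 0.0159), and without any 1 library it was -0.58 to -0.53 with adjusted p from 0.093 to 0.11. Mef2d had -0.14 (SE 0.0333, adjusted p = 0.0541), which passed the threshold in 2 of the alternatives, and Mef2a had -0.09 (adjusted p = 0.33). Mef2b was below the filter, with 0.0407 to 0.162 RPKM.

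Of 15 kinases listed for the class IIa deacetylases, 12 were tested, 1 was higher and 2 were lower, close to the shares of all tested genes (7.68% higher and 11.0% lower). Sik1, a salt-inducible kinase whose gene is induced by cAMP, stood at 4.72 and 6.02 RPKM in the controls and at 16.2 and 13.8 RPKM in Hdac3cKO. The lower Hdac3cKO value was above the higher control by more than the spread within either genotype, and Sik1 rose by 1.47 on the log2 scale (SE 0.143, adjusted p = 0.00945). Of the 3 protein kinase D genes, Prkd1 and Prkd2 were lower, with Prkd1 at 6.49 and 6.15 RPKM against 3.78 and 3.68 RPKM (-0.74, SE 0.0641, adjusted p = 0.00815) and Prkd2 at 5.25 and 4.89 RPKM against 3.89 and 3.89 RPKM (-0.37, SE 0.0691, adjusted p = 0.032). Prkd3 overlapped between genotypes, at 10.5 and 11.0 RPKM against 11.0 and 10.4 RPKM (log2 fold change -0.01, adjusted p = 0.923). The calcium/calmodulin kinases Camk2g (0.10, adjusted p = 0.0848) and Camk2d (-0.21, adjusted p = 0.109) were not called. Of the 7 genes for 14-3-3 proteins 1 was higher and 1 lower, beside those same shares. Ywhag was higher (0.17, SE 0.0333, adjusted p = 0.034) and Sfn, the epithelial member, was lower (-0.39, SE 0.0717, adjusted p = 0.0321), while Ywhaq (-0.08, adjusted p = 0.0967) and Ywhae (0.08, adjusted p = 0.105) were not called. When any 1 library was left out, none of the genes in these partner lists was called in either direction.

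Some markers of other cells were called as well, in both directions. Among all tested genes 11.0% were lower and 7.68% higher. Of 10 endothelial markers, 7 were lower and none higher, with a median log2 fold change of -0.41, and their summed level was 117 and 115 RPKM in Hdac3flox/flox and 84.7 and 85.3 RPKM in Hdac3cKO. Cldn5, a tight junction protein of endothelium, fell by 0.80 on the log2 scale (adjusted p = 0.00373) and the adhesion protein Cdh5 by 0.42 (adjusted p = 0.00686). The VEGF receptor Kdr, also on that list, was close to level between genotypes (log2 fold change -0.02, adjusted p = 0.856). Summed levels also differed for 8 theca markers (3456 and 3237 RPKM against 2786 and 2730 RPKM, 4 lower), 8 stromal markers (610 and 607 RPKM against 548 and 563 RPKM, 5 lower) and 6 smooth muscle markers (484 and 476 RPKM against 327 and 391 RPKM, 2 lower). Hsd3b1 made up most of the theca sum (2355 and 2237 RPKM against 1918 and 1950 RPKM). Among the 4 lower theca markers were Cyp17a1 (log2 fold change -0.47, adjusted p = 0.0291) and Insl3 (-1.20, adjusted p = 0.0268), the latter at 8 to 24 reads a library. The stromal markers Pdgfrb (-0.49, adjusted p = 0.00786) and Lum (-0.89, adjusted p = 0.00925) were lower. So were the smooth muscle markers Myh11 (-0.77, adjusted p = 0.0097) and Acta2 (-0.39, adjusted p = 0.0374). On the theca, stromal and smooth muscle lists Star, Gli1, Col1a1, Dcn and Des had positive log2 fold changes (0.06 to 0.50), none of them called. Of 10 GC markers 5 were higher and 2 lower, and of 10 oocyte markers 1 was higher, with a median log2 fold change of 0.19 for the oocyte list. No leukocyte marker of 6 tested was called, and of 6 surface epithelium markers 2 were lower. Of 3 tested fat cell markers 2 were higher and 1 was lower, with Cfd at 0.118 and 0 RPKM in the controls and 2.29 and 7.02 RPKM in Hdac3cKO. Both higher fat cell genes passed the filter only through the Hdac3cKO libraries, so their entry to the test depended on their level there. With at least 1 RPKM in every library, 1 fat cell marker was tested, and it was lower. With no filter on low values, 6 endothelial markers and no theca marker were lower and 1 GC marker was higher, and without any 1 library no marker was called. With no filter, 544 of all 28611 rows were lower and 410 higher. The deposited table holds no row at 0 in every library, so a gene without any reads would have no row. Of 6 listed fat cell markers 5 had a row. The part of these cells in the lower levels of Hdac5, Hdac7, Tbl1xr1, Mef2c, Prkd1, Prkd2 and the recruiting receptors was not tested.

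The exons of the members overlapped other genes over short stretches, except in Hdac4. Pigl shares 82 bases (0.64%) of the exons of Ncor1 on the opposite strand, Ttc19 shares 1 base, and Slc48a1 shares 29 bases (0.429%) with Hdac7. The microRNA gene Mir8101, which has no row in the table, lies on the strand of Hdac5 and shares 111 bases (1.26%) of its exons. Slc48a1, a heme transporter gene, was itself lower (log2 fold change -0.15, SE 0.0348, adjusted p = 0.048), while Pigl (-0.14, adjusted p = 0.428) and Ttc19 (0.06, adjusted p = 0.575) were not called. Hdac4 is the less certain case, since the antisense RNA Gm26720, which has no row of its own in the table, covers 3536 bases (22.4%) of its exons, and the sources used here do not say whether counting used strand. The pseudogenes Gm12276 and Gm5842 and the uncharacterised transcript Gm37036 lie within Ncor1, Tbl1xr1 and Hdac4, outside their exons, with 62 to 84 reads a library for Gm12276 and at most 1 read for the others. Gm26720 also matched Hdac4 at 100% identity over 1782 bases (50.4% of the shorter transcript). Apart from it, no annotated transcript of another gene matched a member at 95% identity or more over at least 50% of the shorter transcript and 300 bases. Below that identity lay the pseudogene Gm6743 for Ncor1 (94.9%) and the pseudogene Gm5221 for Gps2 (92.7%).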

How the data were processed

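RNA was sequenced from 4 Illumina TruSeq libraries. The authors deposited RPKM values per gene symbol, made from aligned reads; Bowtie 0.12.2 and the build mm8 appear in the submitters' processing notes, while the counter and gene models were not given in the sources used here. For 24373 of 26800 rows matched by symbol (90.9%), the length implied by the RPKM values was the exon length in GENCODE M21 (GRCm38), which is at odds with mm8, so positions are given on GRCm38. For Hdac3 and Hdac7 the implied lengths were 4026 and 5530 bases, against 4054 and 6755 annotated. There were 24 symbols that stood on several rows, none of them a member.

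Library totals (18310258 and 18346828 reads for Hdac3flox/flox, 18452073 and 17621129 for Hdac3cKO) and whole reads (relative tolerance 3e-13) were recovered from the proportions between values, with annotated length for 24373 rows and as the smallest whole numbers for 4238. Intervals cover counting error only. The linear model of limma 3.58.1 (R 4.3.3) was applied to log2(RPKM + 0.1) (trend, genotype only, 2 residual degrees of freedom), two-sided; fold changes on this scale understate those of low genes. The fit was tested on simulated data. Copies were searched with BLAST 2.17.0, tables were handled with Python 3.11.15 and pandas 2.3.3, and plots were drawn with matplotlib 3.10.9. Replicate numbers are taken from the sample titles, and each library was treated as an independent replicate.

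Members and lists were chosen with earlier results of these data known. Named were all members, all genes of the short lists (corepressor partners, MEF2 factors, class I deacetylases), of every other partner list up to 4 called and 2 not called genes with the smallest p, up to 2 genes of each marker list, genes of the table that overlap a member, and the 3 genes nearest to Hdac3. Tcp1, Cct2, Cct4, Cct5, Prkd3, Inha, Foxl2, Kdr, Cyp17a1, Star, Gli1, Col1a1, Dcn and Des were named after their values were seen. A further partner of the corepressor is not reported here. The alternatives tried were pseudocounts of 1 and 0.01, testing without a filter, a filter of 1 RPKM in every library, scaling by median-of-ratios size factors, voom weights on the recovered reads, a block for replicate number, and fits that each omitted 1 library.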

Additional observations from a re-analysis of the deposited data

How the results depend on the processing

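Hdac3 and Hdac5 kept their direction and their call in all 7 alternatives that used 4 libraries, with log2 fold changes of -0.34 to -0.30 (adjusted p 0.000121 to 0.0333) and -0.60 to -0.53 (6.02e-06 to 0.0363). With 1 library left out, the lone sample is assumed to vary like the other genotype's, and fewer samples were fitted: Hdac3 had -0.35 to -0.33, Hdac5 -0.64 to -0.55 and Tbl1xr1 -0.25 to -0.24, none called, Gps2 had -0.0234 to 0.0171, and over all genes 0 to 98 were called (0 to 45 higher, 0 to 53 lower, and 4075 to 4357 at an unadjusted p under 0.05), with 0 in the partner lists in either direction. Tbl1xr1 lost its call with no filter (-0.24, adjusted p = 0.0632) and with median-of-ratios size factors (-0.20, adjusted p = 0.0544). With limma voom on recovered reads, Tbl1x (-0.11, adjusted p = 0.0483) and Hdac7 (-0.14, adjusted p = 0.0314) were called. With median-of-ratios size factors Gps2 changed sign to 0.0404 and Zbtb33 to 0.0165, neither called. Against 2904 genes called, 954 (410 higher, 544 lower) were called with no filter, and 4637 (1863 higher, 2774 lower) with voom. Against 7 genes of the partner lists higher and 10 lower, 3 and 5 were called with no filter, and 12 were higher with median-of-ratios size factors and 13 with voom. The cause of these shifts was not tested. The replicate numbers gave no clear sign of pairing (correlation of deviations 0.076 between libraries of the same number over 15528 genes). With 2 libraries per genotype that value cannot show whether libraries of the same number shared a batch. With the replicate number as a block, 2143 genes were called, Tbl1xr1 lost its call (-0.24, adjusted p = 0.071), and 4 genes of the partner lists were higher. Depth limited Hdac9, with 26 to 43 reads a library.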
